A study of Mus musculus with 4 samples.

Results

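The C/EBP (CCAAT/enhancer-binding protein) family was followed as 6 genes, Cebpa, Cebpb, Cebpd, Cebpe, Cebpg and Cebpz, chosen by gene symbol out of the 32285 genes of the deposited count tables. All 6 were found, and all 6 had UMIs (unique molecular identifiers, each marking 1 captured RNA molecule) in every one of the 4 libraries. The material was mouse bone marrow positive for Kit (CD117, the stem cell factor receptor) and for the CD45.2 form of CD45, taken 10 weeks after transplantation. Cells were read by 10x Genomics 3′ single-cell sequencing together with barcoded antibodies. The labels name a control group, a group with Mll3 deleted, a group with Mll4 deleted and a group with both deleted (Mll3/4), and each had 1 library. The histone methyltransferases Mll3 and Mll4 are the products of Kmt2c and Kmt2d. The labels used here name no Cre driver, no allele beyond the deletions, no number of donors and nothing about the host. Each library also carried 2 hashtag antibodies whose meaning the labels do not give.

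With 1 library a group there is no test and no p-value below. Levels are UMIs summed over cells and scaled to a total of 1000000 UMIs (CPM), intervals are exact 95% Poisson or binomial intervals for counting error alone, and what is compared is single libraries rather than conditions. Kmt2c, the gene of Mll3, had levels of 47.9 (control), 27.2 (Mll3 deleted), 59.2 (Mll4 deleted) and 34.8 CPM (Mll3/4 deleted). Kmt2d, the gene of Mll4, was at 25.8, 21.6, 25.0 and 24.7 CPM in the same order and did not follow the labels, so a library is named below after its label (for example, the Mll4-labelled library). Reads from the 3′ end may lie outside a deleted part, so these values do not check the deletion. The Mll4-labelled library was the shallowest, with a median of 5142 UMIs a cell against 9965 to 16963.5 in the other libraries, and held almost no Xist (0.519 CPM against at least 954.8 CPM elsewhere), a transcript of female cells. Depth and sex cannot be told apart there from the label. After filtering, 7146 control cells, 5860 Mll3-labelled cells, 5350 Mll4-labelled cells and 6917 Mll3/4-labelled cells were kept, and any pair of libraries shared 3 to 15 cell barcodes. The CD117 antibody passed its threshold in 44.5% of the Mll4-labelled cells and in 58.3% to 80.0% of the cells of the other libraries.

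C/EBP proteins are basic leucine zipper transcription factors that bind DNA as dimers, with each other or with other zipper proteins. In blood formation C/EBP alpha is known for the step from multipotent cells to granulocyte and monocyte progenitors, C/EBP epsilon for the late maturation of granulocytes with their secondary granules, and C/EBP beta and C/EBP delta for emergency granulopoiesis and inflammatory genes. C/EBP gamma lacks an activating domain and often acts as a partner of other zipper proteins. Cebpz carries the name but encodes a nucleolar protein of ribosome assembly without a leucine zipper, and serves here as a family member of another kind.

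The genes lie on 5 chromosomes (GRCm38, GENCODE M21). Cebpa (ENSMUSG00000034957) is at 35119293 to 35121928 on chromosome 7, plus strand, and Cebpg (ENSMUSG00000056216) at 35046422 to 35056573 on the minus strand of the same chromosome, 62.719 kb away. Cebpb (ENSMUSG00000056501) is a gene of 1 exon on chromosome 2, 167688915 to 167690418. Cebpd (ENSMUSG00000071637) is on chromosome 16, 15887286 to 15891031, and Cebpe (ENSMUSG00000052435) on chromosome 14, 54710360 to 54712174. Cebpz (ENSMUSG00000024081), on chromosome 17 from 78919006 to 78937066, overlaps the opposite-strand gene Cebpzos by 1301 bases. The 3′ kit reads strand, but how the authors counted reads in such overlaps is not given in the sources used here, so the Cebpz value is less certain than the others.

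Promoters were matched for 3 of the 6 members, Cebpa, Cebpb and Cebpg, and all 3 are shown, so that Cebpa, whose level over all cells differed most of the 6 in the Mll4-labelled library, can be set beside its chromosomal neighbour Cebpg. Each sequence runs 5′ to 3′ on the gene's strand from 250 bases before to 50 bases after the RefSeq start (GRCm38.p6). Capitals mark TATAAA (the core of a TATA box) or CCAAT, read on both strands, so that ATTGG is CCAAT on the other strand.
Cebpa promoter, chr7:35119043-35119342, plus strand: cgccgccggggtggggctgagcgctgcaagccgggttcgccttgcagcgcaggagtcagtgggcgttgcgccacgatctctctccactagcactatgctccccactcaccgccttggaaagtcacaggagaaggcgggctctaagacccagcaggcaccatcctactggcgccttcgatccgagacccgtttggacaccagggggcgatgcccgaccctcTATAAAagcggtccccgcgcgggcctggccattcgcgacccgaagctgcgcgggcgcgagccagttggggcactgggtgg
Cebpb promoter, chr2:167688665-167688964, plus strand: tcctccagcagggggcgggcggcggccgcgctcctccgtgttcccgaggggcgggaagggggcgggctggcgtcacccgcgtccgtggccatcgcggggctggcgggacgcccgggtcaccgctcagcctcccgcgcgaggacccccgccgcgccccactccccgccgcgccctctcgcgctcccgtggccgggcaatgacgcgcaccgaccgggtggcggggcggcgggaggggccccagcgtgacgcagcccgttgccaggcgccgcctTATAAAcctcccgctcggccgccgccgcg
Cebpg promoter, chr7:35056517-35056816, minus strand: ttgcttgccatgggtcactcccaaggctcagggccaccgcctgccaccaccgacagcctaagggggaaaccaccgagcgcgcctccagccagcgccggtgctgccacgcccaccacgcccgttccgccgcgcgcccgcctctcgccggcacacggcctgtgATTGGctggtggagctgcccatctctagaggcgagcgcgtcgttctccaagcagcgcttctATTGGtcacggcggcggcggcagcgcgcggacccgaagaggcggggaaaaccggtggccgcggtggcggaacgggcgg
TATAAA was found at -30 in Cebpa and at 21 in Cebpb, counted from the start, and neither held CCAAT. The Cebpg window held ATTGG at -89 and -28 and no TATAAA. Of 32851 mouse promoters of the same length, 13.6% held TATAAA and 37.4% held CCAAT on either strand. The windows had 67.3% (Cebpa), 80.7% (Cebpb) and 71.7% (Cebpg) G or C against a median of 52.7%. These matches describe letters and were not tested as sites.

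In the control library the 6 genes fell into a myeloid group and a broadly expressed group. Cells were clustered without the 6 genes, and clusters were named "X-like" from fixed markers. Cebpa was highest in monocyte-like cells (75.7 CPM, 67.5 to 84.7) and basophil/mast-like cells (75.5 CPM, 59.0 to 95.3), whose intervals overlapped. It was at 46.8 CPM in granulocyte progenitor-like cells (Elane, Mpo) and at 21.5 CPM in HSC/MPP-like cells (hematopoietic stem cells and multipotent progenitors). Lower levels followed in T/NK/innate lymphoid-like cells (6.65 CPM), megakaryocyte-like cells (5.13 CPM), neutrophil-like cells (4.63 CPM) and B-cell progenitor-like cells (3.46 CPM, 11 UMIs), each overlapping the next in that order. Erythroid-like cells were lowest at 1.15 CPM, 65.8-fold below the monocyte-like cells. An unnamed cluster led by Cd34 and Flt3 (cluster 4, 955 control cells) held 49.4 CPM, close to the granulocyte progenitor-like level.

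Cebpe, the granule-stage factor, had the widest span, 454-fold. It was at 832 CPM in neutrophil-like cells (Ltf, Ngp, Cd177), 209 CPM in granulocyte progenitor-like cells and 31.1 CPM in monocyte-like cells. Cebpa and Cebpe were thus highest in different classes, since neutrophil-like cells held the highest Cebpe and little Cebpa. Granulocyte progenitor-like cells held both. Cebpd followed Cebpe, at 332 CPM in neutrophil-like cells, 124 CPM in granulocyte progenitor-like cells, 120 CPM in monocyte-like cells and 2.40 CPM in erythroid-like cells. Cebpb was flatter among myeloid cells, at 179 CPM in neutrophil-like cells and 160 CPM in both granulocyte progenitor-like and monocyte-like cells. It alone of the 4 myeloid members was well above its lowest class in erythroid-like cells, at 28.1 CPM against 7.23 CPM in B-cell progenitor-like cells.

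The other 2 genes varied little. Cebpg was highest in B-cell progenitor-like cells (72.3 CPM, 63.2 to 82.3) and lowest in neutrophil-like cells (31.5 CPM, 29.3 to 33.8), a 2.30-fold span, and its neighbours in that order overlapped for all but the step down to neutrophil-like cells. Cebpz was highest in erythroid-like cells (171 CPM) and lowest in neutrophil-like cells (35.9 CPM), a 4.77-fold span. In both the neutrophil-like cells, which had the highest Cebpd and Cebpe, were lowest.

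**Figure D1:**
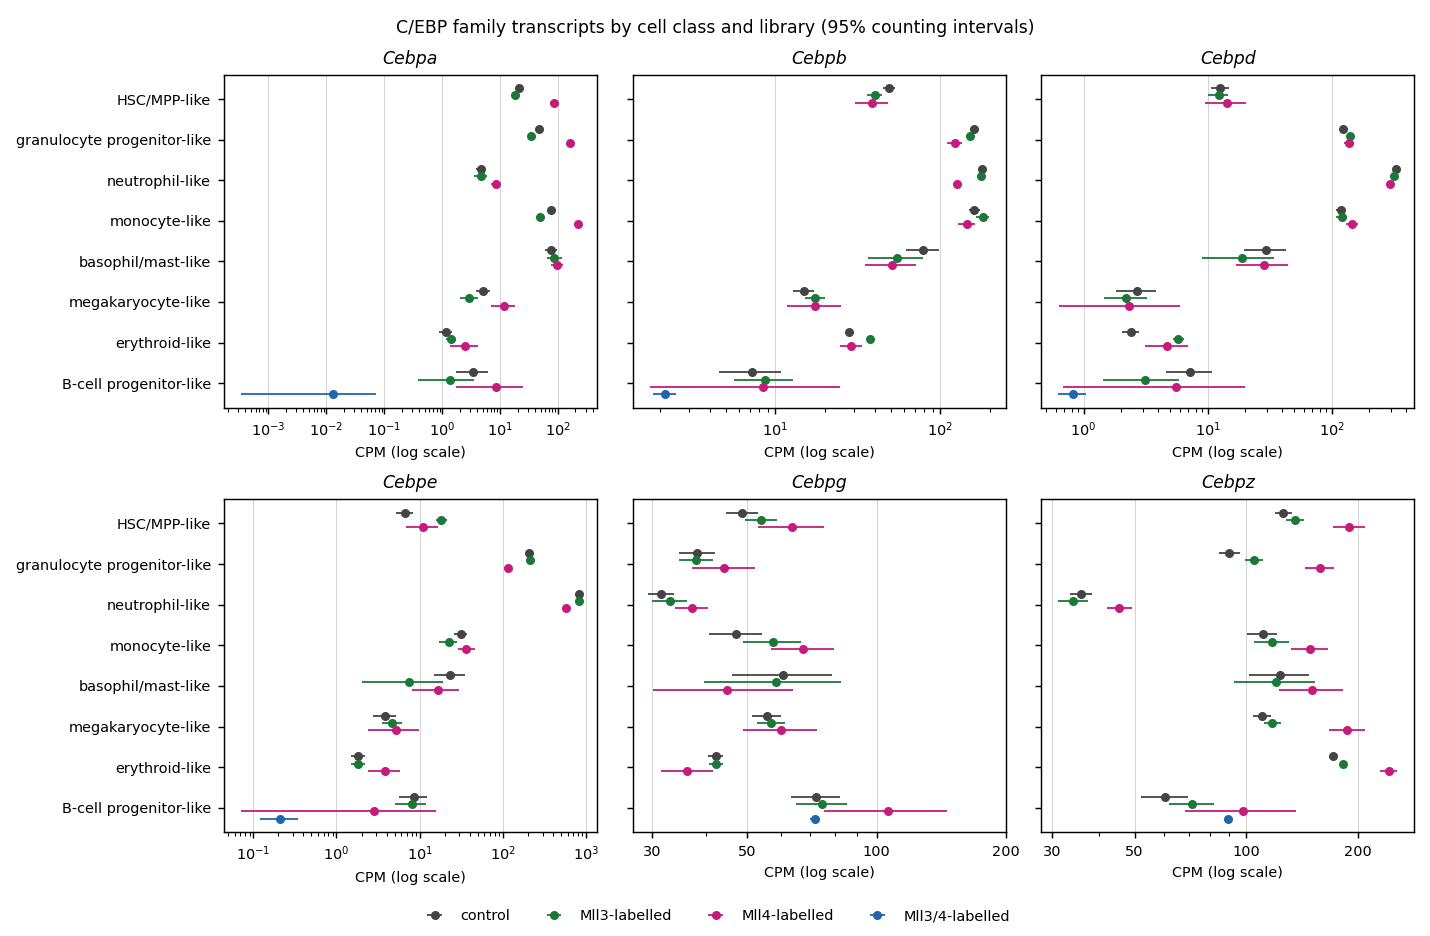
Level of each C/EBP gene in CPM (log axis) by cell class, with 95% counting intervals; colours are the 4 libraries, and only classes of 50 or more cells in a library are drawn. The Mll4-labelled Cebpa points lie to the right of control in 7 of 7 classes with enough UMIs to compare, and the Mll3/4-labelled library appears only for B-cell progenitor-like cells.

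The level summed over a library therefore depends on its mix of cells, and in such a sum fewer cells of a type and less RNA per cell cannot be told apart. In control, 85.5% of all Cebpe UMIs and 74.5% of all Cebpd UMIs came from neutrophil-like cells, which were 1782 of the 7146 cells. Cebpa was spread over granulocyte progenitor-like (23.4%), monocyte-like (14.2%) and HSC/MPP-like cells (10.8%), with much of the rest in unnamed cluster 4. Erythroid-like cells held 54.4% of the Cebpz UMIs and 39.3% of the Cebpg UMIs.

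**Figure D2:**
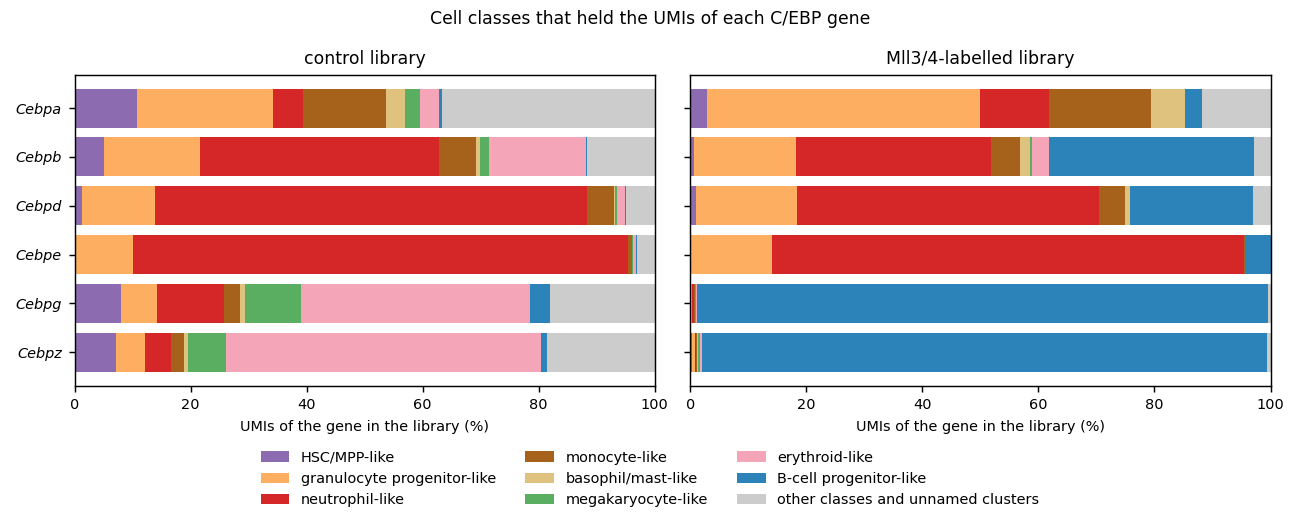
Share of each gene's UMIs (%) held by each cell class in the control library (left) and in the Mll3/4-labelled library (right). Neutrophil-like cells held 85.5% of control Cebpe UMIs, while B-cell progenitor-like cells held 98.6% of the Cebpg UMIs of the Mll3/4-labelled library.

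Free RNA from lysed cells was not measured directly. S100a8, an abundant neutrophil gene, stood in as a marker of neutrophil RNA in other cells. In control it was at 92555 CPM in neutrophil-like cells and at 156 CPM in erythroid-like cells, which should lack it. Cebpe per 1000 S100a8 UMIs was 8.99 in neutrophil-like cells, 11.7 in erythroid-like cells and 12.4 in B-cell progenitor-like cells of control. In HSC/MPP-like cells the ratio was 20.5. The part of free RNA in the Cebpe of erythroid-like and B-cell progenitor-like cells was not tested, and no expression is claimed there. A Cebpe UMI was seen in 8.96% of control HSC/MPP-like cells (median 14768 UMIs) against 9.26% of erythroid-like cells (median 55833 UMIs). With every cell thinned to 2000 UMIs it was seen in 0.881% against 0.441%, shares that rest on few cells. Cebpa differed more between these classes. Of HSC/MPP-like cells 19.97% had a Cebpa UMI against 5.50% of the deeper erythroid-like cells, or 3.96% against 0.353% after thinning.

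In single cells of control, the members were often found together where both were abundant. Among granulocyte progenitor-like cells 251 of 486 (51.6%) had UMIs of both Cebpa and Cebpe, and Cebpe was seen in 85.4% of the cells with Cebpa and in 84.9% of those without. Among neutrophil-like cells 94.8% had both Cebpd and Cebpe. In HSC/MPP-like cells Cebpb was seen in 59.6% of cells with a Cebpa UMI and in 45.3% of those without, but the former were deeper, with a median of 22799 against 12788 UMIs. The part of depth in that difference was not tested.

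Over the 28 class-by-library groups of 50 or more cells, the level of Cebpd followed that of Cebpe (Pearson's r of 0.90 on log2 of CPM plus 1) and that of Cebpb (r of 0.90). Cebpa followed Cebpb (r of 0.62) more than Cebpe (r of 0.31), and was near 0 with its chromosomal neighbour Cebpg (r of 0.08). Cebpg and Cebpz ran against Cebpe (r of -0.59 and -0.61). These groups share libraries and depth, may share free RNA, and are not independent, so no test is given. Of 12627 genes, members included, the non-members most alike in pattern were Epha7, Edem2 and Vps18 for Cebpa (r of 0.91 each). For Cebpb they were Lair1 (r of 0.92), Tmed3 and Ap3s1, and for Cebpd Mtus1 (r of 0.96), Msrb1 and Clec12a. For Cebpe they were Trem3 (r of 0.96) and G0s2, for Cebpg Fundc1 (r of 0.84), Zmiz1 and Crip1, and for Cebpz Iars2 (r of 0.96), Wdr43 and Pum3.

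In the Mll4-labelled library Cebpa stood well above control. Over all cells the control library had 14.1 CPM, the Mll3-labelled library 10.1 CPM, the Mll4-labelled library 50.9 CPM and the Mll3/4-labelled library 0.438 CPM. The Mll4-labelled level was the highest of the 4, a log2 ratio to control of 1.85 (1.76 to 1.94). Cebpd was also past 2-fold over all cells, at 154 CPM against 69.6 CPM (log2 ratio 1.15), and Cebpe was at 262 CPM against 152 CPM (0.79). These were 2 of 6 genes at least 2-fold higher, where 9.67% of all tested genes were. With each cell weighted equally only Cebpa stayed past 2-fold (1 of 6), and Cebpd came to 0.79. Neutrophil-like cells were 2687 of 5350 cells there against 1782 of 7146 in control.

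Within classes the Cebpa difference was present from multipotent to monocyte-like cells, and no other member was past 2-fold in those classes. Cebpa was at 83.7 CPM (71.6 to 97.2) in HSC/MPP-like cells against 21.5 CPM (18.9 to 24.5) in control, a log2 ratio of 1.96 (1.66 to 2.25). In granulocyte progenitor-like cells it was at 163 CPM against 46.8 CPM (1.79, 1.61 to 1.98), and in monocyte-like cells at 218 CPM against 75.7 CPM (1.52, 1.31 to 1.74). All 3 intervals lay clear of 1, the 2-fold line. Megakaryocyte-like cells (11.6 against 5.13 CPM, log2 ratio 1.18) and erythroid-like cells (2.46 CPM from 14 UMIs against 1.15 CPM, log2 ratio 1.10) were past 2-fold with intervals that reached below it. Neutrophil-like cells had a log2 ratio of 0.89 (0.50 to 1.27), and basophil/mast-like cells, at 96.8 against 75.5 CPM, one of 0.36 (-0.15 to 0.86) that included 0. B-cell progenitor-like cells had too few Cebpa UMIs to compare (3 and 11).

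Cebpa was thus at least 2-fold higher in 5 of 7 classes. It was the only member so in HSC/MPP-like cells, where 5.21% of all genes were, in granulocyte progenitor-like cells (9.42% of genes), in monocyte-like cells (8.37%) and in megakaryocyte-like cells (5.86%), and was joined by Cebpe in erythroid-like cells (7.22%). That Cebpe value (3.87 against 1.83 CPM) stood beside S100a8 at 998 against 156 CPM, with 3.87 against 11.7 Cebpe UMIs per 1000 S100a8 UMIs. The part of free RNA in it was not tested, and no expression is claimed from it. No member was at least 2-fold higher in the neutrophil-like (4.68% of genes) or basophil/mast-like class (11.3%). Among B-cell progenitor-like cells Cebpe was past 2-fold lower at 2.80 against 8.49 CPM, on 1 UMI against 27, where 8.15% of genes were lower. The interval of that Cebpe ratio included 0. The ratio of Cebpa in HSC/MPP-like cells was above that of 99.6% of the genes tested there. Scaling to total UMIs left the median gene above control in these classes, by 0.28 on the log2 scale in granulocyte progenitor-like cells and by 0.07 to 0.22 in the other classes compared. Relative to the median gene of its class, Cebpa was higher by 1.82 in HSC/MPP-like, 1.51 in granulocyte progenitor-like and 1.31 in monocyte-like cells.

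**Figure D3:**
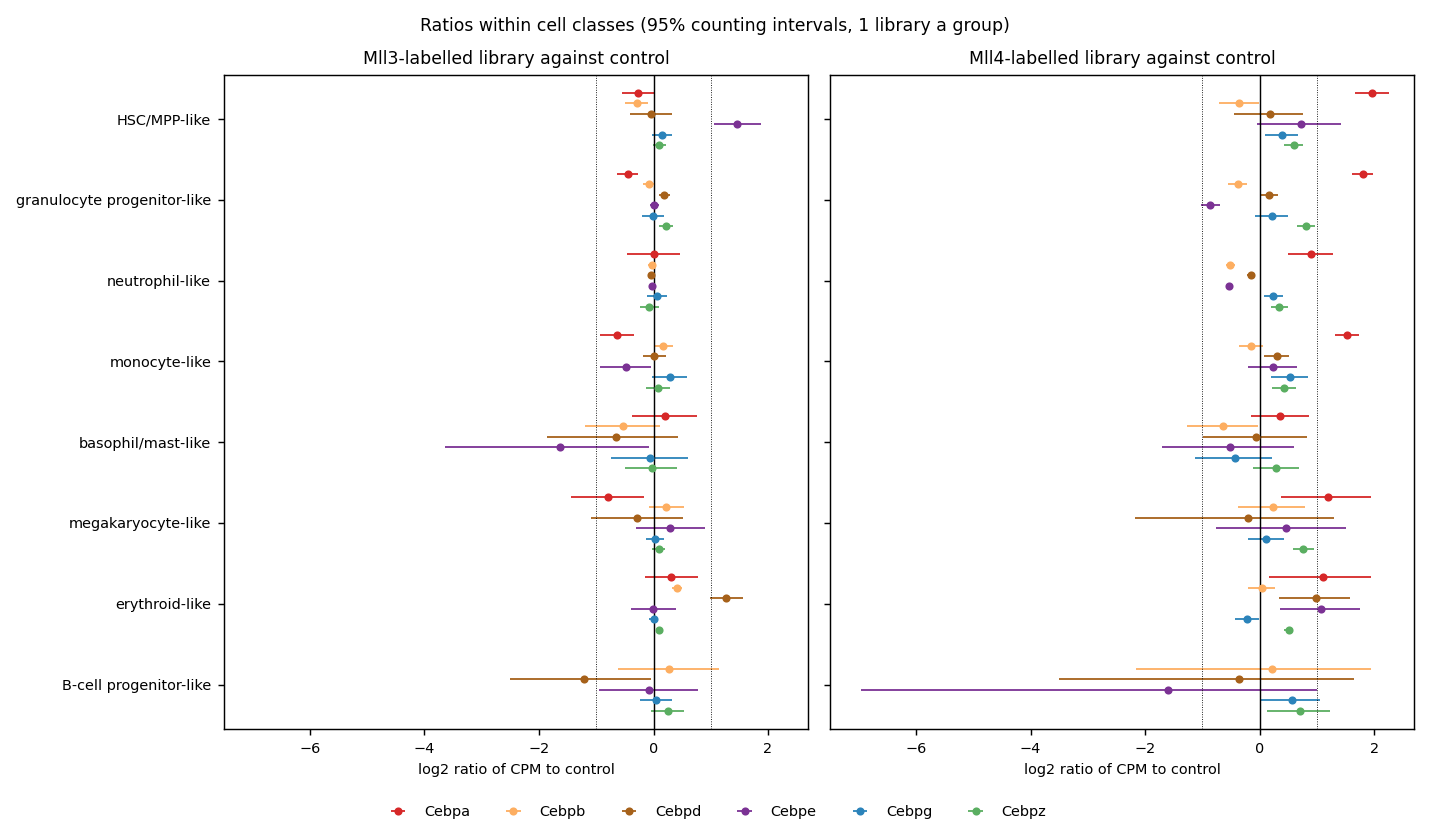
log2 ratio of CPM to control for each C/EBP gene within 8 cell classes, with 95% counting intervals, for the Mll3-labelled (left) and Mll4-labelled (right) library; dotted lines mark 2-fold. On the right Cebpa lies past the 2-fold line in 5 classes, while on the left no Cebpa point does.

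The Cebpa difference was seen in single clusters and in cells gated by surface antibodies as well. Of 13 clusters with enough UMIs, Cebpa was at least 2-fold higher in 12, and in 9 of the 13 the interval of the ratio lay above 0. Of all genes, 5.68% to 11.3% were at least 2-fold higher in those clusters. That background was 8.18% in cluster 3, 7.21% in 4, 8.08% in 5, 5.68% in 7, 5.98% in 9, 8.76% in 10, 6.84% in 11, 9.12% in 12, 5.71% in 13, 9.62% in 14, 8.37% in 15, 6.29% in 16 and 11.3% in 18. Cluster 13, the part of the HSC/MPP-like class with histone genes among its leaders, had 122 CPM against 32.5 CPM. Cluster 9, the part led by Hlf and Mecom, had 10.0 CPM (7 UMIs) against 4.86 CPM, with a log2 ratio of 1.04 (-0.44 to 2.33) whose interval included 0. Cluster 13 held 166 of the 331 Mll4-labelled and 293 of the 681 control HSC/MPP-like cells. The part of this difference in mix in the HSC/MPP-like ratio of Cebpa was not tested. The unnamed clusters also differed: cluster 4 had 223 CPM against 49.4 CPM (2.17), and cluster 5, led by Apoe and Gata2, had 20.5 CPM against 5.94 CPM (1.79). Granulocyte progenitor-like clusters 12 and 14 had 165 against 54.4 CPM and 161 against 39.4 CPM.

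**Figure D4:**
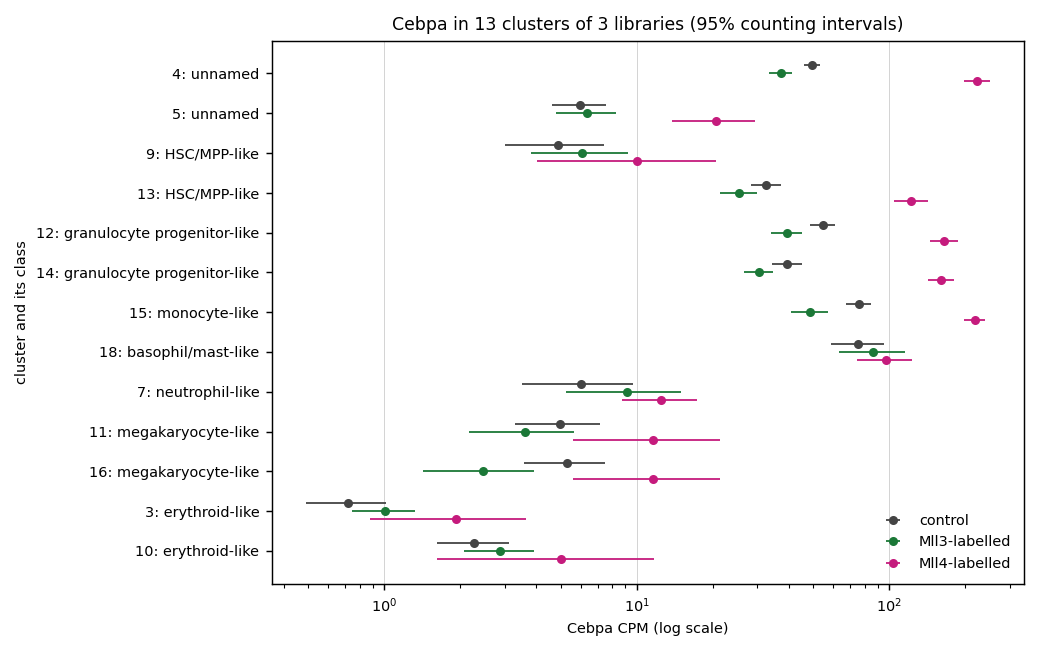
Cebpa in CPM (log axis) in clusters with at least 50 cells in control and in the Mll3- and Mll4-labelled libraries, B-cell clusters left out, with 95% counting intervals. Mll4-labelled points lie to the right of control in every cluster drawn, from 1.92 against 0.718 CPM in cluster 3 to 223 against 49.4 CPM in cluster 4. Some clusters have overlapping intervals, among them the basophil/mast-like cluster 18 and the HSC/MPP-like cluster 9.

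By surface antibodies, Cebpa in CD117+ Sca1- CD34+ CD16/32+ cells, the gate of granulocyte-monocyte progenitors, had a control level of 61.1 CPM, an Mll3-labelled level of 38.9 CPM and an Mll4-labelled level of 173 CPM. In CD117+ Sca1- CD34+ CD16/32- cells the levels were 43.9, 27.9 and 148 CPM. In CD117+ Sca1+ cells they were 9.93, 9.16 and 27.9 CPM. The Mll4-labelled level was highest in each of these gates, with intervals of the log2 ratio of 1.32 to 1.68, 1.58 to 1.93 and 0.998 to 1.97, where 9.01%, 7.06% and 6.63% of all genes were at least 2-fold higher. In CD117+ Sca1- CD34- CD16/32- cells Cebpa was at 19.3 against 4.68 CPM in control, where 8.76% of genes were 2-fold higher. The mix of cells in these gates also differed. Elane, of granulocyte progenitors, was at 1762 against 583 CPM in the CD34+ CD16/32- gate and at 576 against 208 CPM in the CD34- gate. In the CD117+ Sca1+ gate it was at 255 against 104 CPM, and in the CD34+ CD16/32+ gate lower, at 4198 against 6064 CPM. In B220+ CD11b- cells Cebpa was at 59.8 CPM (34 UMIs, 188 cells) against 5.35 CPM (9.8% of genes 2-fold higher), beside 107 dendritic-like cells with 59.9 CPM Cebpa in the Mll4-labelled library and 2 in control; their part in that gate was not tested. By hashtag, Cebpa in granulocyte progenitor-like cells was at 155 and 182 CPM in Mll4-labelled cells positive for the first and for the second hashtag, and at 47.0 and 47.2 CPM in control. Cells of both hashtags thus showed the difference.

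Other members were past 2-fold in some of these gates too. In CD117+ Sca1+ cells, Mll4-labelled Cebpd was at 60.97 against 15.3 CPM (log2 ratio 1.997, 1.65 to 2.34) and Cebpe at 77.5 against 17.99 CPM (2.11, 1.80 to 2.42), so 3 of 6 members were higher there and both ratios exceeded that of Cebpa. S100a8, the neutrophil gene, was at 20375 against 1727 CPM in the same gate. Cebpe per 1000 S100a8 UMIs was 3.804 there, and 4.27 in the neutrophil-like cells of that library. Cebpd was also higher in CD117+ Sca1- CD34- CD16/32- cells (13.5 against 5.03 CPM), beside S100a8 at 1606 against 192 CPM. In B220+ CD11b- cells it was at 19.3 against 8.66 CPM, beside S100a8 at 1937 against 641 CPM. Cebpe was lower in that gate, at 5.28 against 11.2 CPM from 3 against 44 UMIs (6.08% of genes lower), with an interval that included 0. S100a8 was also higher in the CD34+ gates, at 8109 against 1473 CPM with CD16/32 and 1177 against 288 CPM without. The part of neutrophil RNA or cells, or of granulocyte progenitors, in the gate values was not tested.

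Within cell classes, Cebpb was lower in the Mll4-labelled library in granulocyte progenitor-like cells (122 against 160 CPM, log2 ratio -0.38, -0.55 to -0.22) and in neutrophil-like cells (125 against 179 CPM, -0.52). Cebpd stayed within 0.30 of control on the log2 scale in HSC/MPP-like, granulocyte progenitor-like, neutrophil-like and monocyte-like cells, and its sign in the first 2 flipped when counts were scaled by the trimmed mean of M-values. Cebpe was at 115 CPM against 209 CPM in granulocyte progenitor-like cells, a log2 ratio of -0.86 (-1.03 to -0.70). It was past 2-fold lower (-1.19) under that scaling. Under the naming of clusters tried first the ratio was 0.0048. There the class held 1235 control and 432 Mll4-labelled cells, against 486 and 415 here, so that value describes another set of cells. The cause of the lower Cebpe was not tested. In clusters 12 and 14, which make up the class here, the Cebpe ratio was -0.77 and -0.98.

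The neutrophil-like cells of control held Cebpe at 832 CPM, those of the Mll3-labelled library at 813 CPM, those of the Mll4-labelled library at 572 CPM and the 24 of the Mll3/4-labelled library at 613 CPM. The Mll4-labelled ratio was -0.54 (-0.58 to -0.50). Different clusters held most of this class, cluster 1 with 1250 of 1782 control cells and cluster 2 with 1925 of 2687 Mll4-labelled cells. In cluster 7 (Retnlg, Mmp8), which both libraries filled, Cebpe was at 459 against 713 CPM (-0.64), Cebpb at 106 against 183 CPM (-0.80) and Cebpa at 12.5 against 6.05 CPM (1.05). The directions in that shared cluster were those of the class.

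In the Mll4-labelled library Cebpg went both ways and Cebpz was higher, each by less than 2-fold within classes. Cebpg had log2 ratios of -0.44 to 0.56 over the 8 classes, and its sign in granulocyte progenitor-like and megakaryocyte-like cells flipped with the trimmed mean scaling. Cebpz was above control in all 8 classes, by 0.29 (basophil/mast-like) to 0.81 (granulocyte progenitor-like, 158 against 90.2 CPM), and relative to the median gene by 0.13 to 0.61. In 7 of the 8 classes the Cebpz interval lay above 0. Over all cells the Cebpz ratio was 0.04 (-0.01 to 0.09). Neither gene reached 2-fold in any class.

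In the Mll3-labelled library the family stayed close to control. No member was 2-fold different over all cells, where 3.4% of all genes were at least 2-fold lower and 1.58% higher, and log2 ratios ran from -0.48 (Cebpa) to 0.17 (Cebpz). Cebpa was lower than control with intervals clear of 0 in monocyte-like cells (48.7 against 75.7 CPM, -0.64, -0.94 to -0.35), granulocyte progenitor-like cells (34.2 against 46.8 CPM, -0.45, -0.64 to -0.27) and megakaryocyte-like cells (2.95 against 5.13 CPM, -0.80, -1.44 to -0.17). In HSC/MPP-like cells it was at 17.9 against 21.5 CPM, with an interval that included 0 (-0.56 to 0.03). The Mll3-, Mll4- and Mll3/4-labelled libraries were all set against the same control library, so that the comparisons share its errors. In the CD117+ Sca1- CD34- CD16/32- gate Cebpa was past 2-fold lower (2.29 against 4.68 CPM, -1.03), together with Cebpe (2.67 against 6.64 CPM), where 4.91% of genes were. Elane, of granulocyte progenitors, was also lower in that gate, at 60.8 against 208 CPM. The part of the mix of cells in these gate values was not tested.

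Past 2-fold within the 8 Mll3-labelled classes were 4 values, all of Cebpd or Cebpe. No member was in granulocyte progenitor-like (2.17% of genes), monocyte-like (2.02%), megakaryocyte-like (3.48%) or neutrophil-like cells (2.34%). Cebpe in HSC/MPP-like cells was at 18.2 CPM (170 UMIs) against 6.60 CPM (72 UMIs), a log2 ratio of 1.46 (1.05 to 1.88), in a class where 0.973% of genes were 2-fold higher. S100a8 was at 281 against 322 CPM in those cells and Elane, of granulocyte progenitors, at 268 against 133 CPM. The Cebpe difference was in cluster 13 (24.7 against 7.59 CPM) more than in cluster 9 (7.76 against 5.09 CPM), was larger in cells of the first hashtag (20.6 against 6.59 CPM) than of the second (10.8 against 6.36 CPM), and came to 0.45 without doublet removal. Cebpd in erythroid-like cells was at 5.80 against 2.40 CPM (1.27, 0.99 to 1.56), with 1.25% of genes higher, and was at 4.57 and 7.50 CPM in the 2 hashtags against 2.58 and 2.20 CPM. S100a8 did not differ in the same way there, at 152 against 156 CPM. Cebpd in B-cell progenitor-like cells (9 against 23 UMIs, -1.21, with 2.67% of genes lower) and Cebpe in basophil/mast-like cells (4 against 22 UMIs, -1.64, with 3.92% lower) rested on few UMIs.

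In the Mll3/4-labelled library the 4 myeloid members were nearly gone, together with the myeloid cells. Over all cells Cebpa was at 0.438 CPM (34 UMIs) against 14.1 CPM in control, Cebpb at 5.90 against 67.9 CPM, Cebpd at 3.79 against 69.6 CPM and Cebpe at 4.88 against 152 CPM. They were 32.2-fold, 11.5-fold, 18.4-fold and 31.1-fold lower, 4 of 6 members at least 2-fold lower where 19.5% of all genes were. Cebpg was higher, at 71.1 against 43.0 CPM (log2 ratio 0.72, 0.67 to 0.78), and Cebpz lower, at 89.6 against 126 CPM (-0.50). B-cell progenitor-like cells were 6830 of the 6917 cells, so these sums compare different cell types.

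The few cells of myeloid classes in that library held most UMIs of Cebpa and Cebpe. The 24 neutrophil-like cells had Cebpe at 613 CPM, Cebpd at 304 CPM and Cebpb at 305 CPM, and held 81.5% of all Cebpe UMIs and 52.0% of all Cebpd UMIs of the library. The 10 granulocyte progenitor-like cells had Cebpa at 47.1 CPM (16 UMIs, 26.9 to 76.4), against 46.8 CPM in control, and held 47.1% of the Cebpa UMIs of the library. The 4 monocyte-like cells had Cebpa at 46.5 CPM from 6 UMIs. Classes of so few cells were not compared.

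Within B-cell progenitor-like cells, the one class large enough in both libraries, the myeloid members were lower than in control as well. Cebpa had 1 UMI in 6830 cells (0.0132 CPM) against 11 UMIs in 471 control cells (3.46 CPM), under the 20 UMIs needed for a ratio. Cebpb was at 2.13 against 7.23 CPM (log2 ratio -1.76), Cebpd at 0.817 against 7.23 CPM (-3.15) and Cebpe at 0.211 against 8.49 CPM (-5.33), 3 of 5 members at least 2-fold lower where 12.7% of all genes were. Cebpg was level at 71.7 against 72.3 CPM (-0.01, -0.20 to 0.19), so that its higher level over all cells was not present within the class. Cebpz was higher at 89.3 against 60.3 CPM (0.57, 0.36 to 0.78), the other way from its value over all cells.

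Neutrophil genes were lower there too: S100a8 within that class was at 26.4 CPM against 687 CPM in control, and Ngp at 3.24 CPM against 164 CPM. Cebpe per 1000 S100a8 UMIs was 7.98 there (16 Cebpe UMIs), 12.4 in control B-cell progenitor-like cells and 8.99 in control neutrophil-like cells. For Cebpd the ratio was 30.9 against 10.5, and 3.59 in control neutrophil-like cells. For Cebpb it was 80.8 against 10.5, and 1.94 in control neutrophil-like cells. The part of free RNA in the Cebpb, Cebpd and Cebpe values was not tested. Different clusters held the class, clusters 17 and 19 in control and clusters 0, 6, 8, 21 and 22 in the Mll3/4-labelled library.

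Surface gates gave Cebpa values in the same direction. In CD117+ Sca1+ cells Cebpa was at 0.287 CPM (9 UMIs) against 9.93 CPM in control, a log2 ratio of -5.11, where 16.9% of genes were at least 2-fold lower. In CD117+ Sca1- CD34- CD16/32- cells it had 0 UMIs against 310, at least 51.1-fold lower with 3 UMIs taken as the floor for the library, where 19.2% of genes were 2-fold lower. These gates held 2629 and 2885 Mll3/4-labelled cells, in a library with 6830 of 6917 cells B-cell progenitor-like and 7 HSC/MPP-like. Control had 471 B-cell progenitor-like and 681 HSC/MPP-like cells. The gates thus set mostly B-cell progenitor-like cells against a different mix of cells and do not compare like cells.

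**Figure D5:**
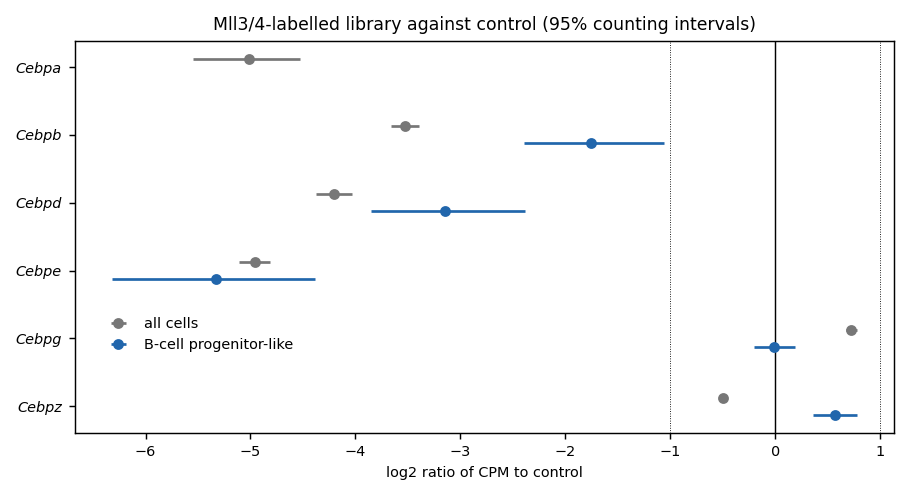
log2 ratio of CPM to control in the Mll3/4-labelled library for each C/EBP gene, over all cells (grey) and within B-cell progenitor-like cells (blue), with 95% counting intervals; dotted lines mark 2-fold. Cebpa has no blue point because 1 and 11 UMIs are too few, Cebpg is at -0.01 within the class, and Cebpz changes side.

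Of genes known as C/EBP alpha targets in granulocyte and monocyte progenitors (11 in the list: Csf3r, Mpo, Elane, Csf1r and others), few were past 2-fold in the Mll4-labelled library. Beside them 3.34% of all genes were at least 2-fold lower in granulocyte progenitor-like cells, 4.86% in HSC/MPP-like cells and 4.56% in neutrophil-like cells. In granulocyte progenitor-like cells 2 of 11 were at least 2-fold higher (9.42% of all genes) and 0 lower, with a median log2 ratio of 0.34 beside 0.28 for all genes, and in HSC/MPP-like cells 0 were higher and 1 lower, with a median of 0.28 beside 0.14. Csf1r, the receptor of monocyte colony-stimulating factor, was at 36.1 against 15.95 CPM in granulocyte progenitor-like cells. Csf3r, the receptor of granulocyte colony-stimulating factor, was at 36.1 against 60.0 CPM there and at 19.7 against 40.8 CPM in HSC/MPP-like cells. Elane, the neutrophil elastase gene, was at 7191 against 11788 CPM in granulocyte progenitor-like cells. Mpo and Elane, with others of the list, were also markers used to name that class. Its counts are therefore not independent of the naming, and no conclusion on C/EBP alpha activity is drawn from them.

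Of the 10 secondary and tertiary granule genes known as C/EBP epsilon targets (Ltf, Camp, Ngp, Lcn2 and others), 2 were at least 2-fold higher (4.68% of all genes) and 1 lower (4.56%) in Mll4-labelled neutrophil-like cells, with a median log2 ratio of 0.24 beside 0.07 for all genes. Ltf, Camp, Ngp and Lcn2, with others of the list, were also markers used to name that class, so its counts are not independent of the naming. Cebpe itself was lower in that class. In HSC/MPP-like cells 6 of 7 were higher (5.21% of all genes), with a median of 2.03, beside S100a8 at 1123 against 322 CPM. In erythroid-like cells 9 of 9 were (7.22% of all genes), with a median of 2.42, where S100a8 was at 998 against 156 CPM. The part of free RNA in those shifts was not tested. In the Mll3/4-labelled library 10 of 10 were at least 2-fold lower over all cells (19.5% of all genes, list median -4.72) and 6 of 6 in B-cell progenitor-like cells (12.7% of all genes, list median -5.46, beside -0.04 for all genes).

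Among upstream regulators of C/EBP alpha, Spi1 (PU.1) was level in Mll4-labelled HSC/MPP-like cells (124 against 128 CPM) and granulocyte progenitor-like cells (230 against 233 CPM). Runx1 was at 95.2 against 59.0 CPM in the latter. Trib1 and Trib2, which promote degradation of C/EBP alpha protein, were both higher in Mll3/4-labelled B-cell progenitor-like cells, where Trib1 was at 32.5 against 6.60 CPM (log2 ratio 2.30) and Trib2 at 61.2 against 5.97 CPM (3.36). In that class 3 of 5 genes of the list were at least 2-fold higher (11.8% of all genes) and 1 lower (12.7%), and Spi1 was at 3.90 against 49.7 CPM.

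Of the other zipper proteins that can pair with C/EBP (8 in the list), Atf5 was at 33.0 against 8.80 CPM in Mll4-labelled neutrophil-like cells and at 16.9 against 8.30 CPM in granulocyte progenitor-like cells. In HSC/MPP-like cells it was at 11.3 against 8.25 CPM, with an interval of the log2 ratio that included 0. In Mll3/4-labelled B-cell progenitor-like cells it was at 28.4 against 7.54 CPM. The Mll3-labelled library was below control instead, at 5.80 CPM in neutrophil-like cells. Ddit3 went the other way in Mll4-labelled HSC/MPP-like cells, at 10.8 against 29.1 CPM. Counts of the list past 2-fold in the Mll4-labelled library were 0 higher (5.21% of all genes) and 1 lower (4.86%) of 7 in HSC/MPP-like cells and 3 higher (9.42%) of 7 in granulocyte progenitor-like cells. In the Mll3-labelled library none of 7 was past 2-fold in those classes, and Atf4, a partner of C/EBP gamma, was at 79.1 against 123 CPM in HSC/MPP-like cells.

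Inflammatory genes with C/EBP beta or delta sites were mostly too low to compare. Over all cells 7 of 8 were measured, with 3 at least 2-fold higher in the Mll4-labelled library (9.67% of all genes), 1 lower in the Mll3-labelled library (3.4%) and 5 lower in the Mll3/4-labelled library (19.5%). Tnf levels were 1.45 CPM (control), 1.03 CPM (Mll3-labelled), 2.56 CPM (Mll4-labelled) and 0.811 CPM (Mll3/4-labelled). The 10 genes of nucleolar ribosome assembly, the setting of Cebpz, were within 2-fold of control in each named class with values in the Mll3-labelled library and in HSC/MPP-like and granulocyte progenitor-like cells of the Mll4-labelled library. Their median log2 ratio in Mll4-labelled granulocyte progenitor-like cells was 0.31 beside 0.28 for all genes, while Cebpz was at 0.81. In Mll3/4-labelled B-cell progenitor-like cells it was 0.33 beside -0.04 for all genes, with Cebpz at 0.57.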

How the data were processed

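Cells of 4 mouse bone marrow libraries were measured by 10x 3′ sequencing. The deposited matrices hold whole UMI counts per gene and cell, made by the authors with Cell Ranger 6.1.2 on mm10 per the submitters' processing notes. Cells with at least 500 genes, at least 1000 UMIs and at most 10% mitochondrial UMIs were kept. Doublets were scored with Scrublet in scanpy 1.11.5, and the top 0.8% per 1000 barcodes (5.29% to 8.01% of cells) was removed. Cells were clustered jointly (2000 variable genes without the 6 members, 30 components, 15 neighbours, Leiden resolution 1). Clusters were named from 108 markers of 13 classes. The naming rule was revised after class shares had been seen, and the first rule is kept as an alternative.

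Counts were summed per library and class and scaled to CPM. Libraries were compared by the ratio of CPM with an exact conditional binomial interval, for genes with at least 20 UMIs in either library and classes of at least 50 cells in both. A gene was counted from 2-fold. With 1 library a group no test was run. Intervals cover counting error only. Scaling by edgeR 4.0.16 (trimmed mean of M-values) and other settings were alternatives. Kept cells held 32777830 to 153615605 UMIs a library. All 6 members were described, with the 3 genes most alike in pattern and the first 4 genes of each of 6 lists. A gene that this rule selects is not reported here. The members and lists were chosen with earlier results of these data known.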

Additional observations from a re-analysis of the deposited data

Results flagged for a closer look

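Cebpd in the Mll3-labelled library had a log2 ratio to control of 1.27 in erythroid-like cells and of -1.21 in B-cell progenitor-like cells, opposite directions under the same contrast. Cebpe in the Mll3-labelled library had one of 1.46 in HSC/MPP-like cells and of -1.64 in basophil/mast-like cells. Cebpe in the Mll4-labelled library had one of 1.08 in erythroid-like cells and of -1.60 in B-cell progenitor-like cells, the latter from 1 UMI. S100a8 was at 998 against 156 CPM in those erythroid-like cells, and the part of free neutrophil RNA in that Cebpe value was not tested. With 1 library a group, the differences between classes were not tested.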

How the results depend on the processing

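No paired analysis was possible because each group had 1 library, and no replicate could be left out. Over the alternatives, 214 counts of members stayed within 1.5 times the main count and 32 moved. Cebpa in the Mll4-labelled library stayed above control, with log2 ratios of 1.51 to 1.90 over all cells, 1.76 to 2.496 in HSC/MPP-like cells and 1.47 to 1.95 in granulocyte progenitor-like cells. In the Mll4-labelled library, members at least 2-fold higher over all cells numbered 2, and 1 with per-cell shares or first-hashtag cells only. Counts within classes are of members past 2-fold in either direction. The Mll4-labelled count in HSC/MPP-like cells was 1, and 2 with second-hashtag cells, with double-hashtag cells removed or at resolution 2. In granulocyte progenitor-like cells it was 1, and 2 with trimmed mean scaling, double-hashtag removal, first-hashtag cells or resolution 2, the added member being Cebpe past 2-fold lower (-1.07 to -1.31). In neutrophil-like cells it was 0, and 1 with per-cell shares or second-hashtag cells, and in monocyte-like cells 1, and 2 with another seed. In erythroid-like cells it was 2, and 0 with trimmed mean scaling, per-cell shares or second-hashtag cells and 1 without doublet removal. In megakaryocyte-like cells it was 1, 0 with trimmed mean scaling or second-hashtag cells and 2 without doublet removal. In B-cell progenitor-like cells it was 1 (Cebpe, lower), 2 without a count filter and 0 with at least 50 UMIs or first-hashtag cells. In the Mll3-labelled library the count of 1 in HSC/MPP-like cells fell to 0 without doublet removal, with second-hashtag cells or with members among the variable genes. In erythroid-like cells it was 1, and 0 without doublet removal or with first-hashtag cells. In B-cell progenitor-like cells it was 1 (Cebpd, lower), 2 without a count filter, and 0 with at least 50 UMIs, without doublet removal or with either hashtag alone. Cebpe in Mll4-labelled erythroid-like cells reversed, to -0.0802, with second-hashtag cells only. The causes were not tested. Cebpa in B-cell progenitor-like cells had fewer than the 20 UMIs set for a ratio.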
